A study of Mus musculus with 4 samples.

Results

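The genes described here were the homeostatic and lymphoid chemokines and receptors Cxcl12, Cxcr4, Ccl21a, Ccl19, Ccr7, Cxcl16 and Cxcr6, chosen by symbol. The 7 symbols occupied 9 of the 30905 rows of the deposited gene table, because Ccl21a and Ccl19 each had a second row on an unplaced scaffold that held 0 UMIs in every library. The cells came from mouse heart grafts collected on day 5 after heterotopic transplantation into the abdominal cavity of C57BL/6J recipients, 2 of them allogeneic (strain label Balb/C) and 2 syngeneic (C57BL/6J), from adult male animals according to the methods. Grafts were dissociated with collagenase and dispase and profiled on the 10x Chromium platform with 3' chemistry, in which each transcript is counted by a unique molecular identifier (UMI). No agent or genetic change was given in the labels, and no cell sort was described. The cells were deposited as 1 merged matrix whose barcodes carry the suffixes 1 to 4, called libraries 1 to 4 below, and no label pairs a suffix with a graft. Allogeneic and syngeneic grafts were therefore not compared, and all values describe 1 pooled sample and its 4 libraries, with no test.

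Chemokines are small secreted proteins that direct the movement of cells bearing the matching receptor. CXCL12 acts through CXCR4 and retains or guides progenitors and leukocytes, CCL19 and CCL21 act through CCR7 and draw dendritic cells and lymphocytes into lymphatic vessels and lymph nodes, and CXCL16, made as a membrane-bound protein, acts through CXCR6 on activated T cells and innate-like lymphocytes. In the heart, CXCL12 is known as a product of vessel-associated cells and CCL21 as a product of lymphatic endothelium.

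Of 53824 deposited cells, 44626 had more than 200 genes and less than 20% mitochondrial UMIs, 2231 of these were removed as doublets, and 42395 were kept. Kept cells numbered 9358 to 12496 per library, with a median depth per kept cell that ranged from 4582.5 UMIs in library 2 to 11871 UMIs in library 4. A total of 308 barcode sequences occurred in 2 libraries, which involved 616 cells or 1.14% of all. Clusters were named from marker lists that contained none of the 7 genes, and names are given as "-like". There were 32 named types of at least 50 cells, and 15.9% of kept cells were left unnamed. Many types came mostly from 1 library, so for them a type and a library cannot be told apart. Levels are in CPM, the UMIs of a gene scaled to 1000000 non-mitochondrial UMIs of the cells named, with exact Poisson 95% intervals in brackets. For shares of cells, Clopper-Pearson intervals (exact) were computed. These intervals cover counting error only.

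The 7 genes differed in how widely their UMIs were spread. Cxcl12 was detected in 46.6% of kept cells, Cxcl16 in 36.6% and Cxcr4 in 23.1%. Ccl21a was detected in 4.89%, Ccr7 in 3.68%, Ccl19 in 3.65% and Cxcr6 in 2.05%. The 424 cells richest in each gene, 1% of the kept cells, held 97.4% of the Ccl21a UMIs, 84.5% of those of Cxcr6, 80.6% of those of Ccr7 and 73.4% of those of Ccl19. The same fraction of cells held 21.5% of the Cxcl12 UMIs, 20.5% of those of Cxcr4 and 17.8% of those of Cxcl16. Thus 4 of the genes were concentrated in few cells and 3 were broadly distributed.

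**Figure D1:**
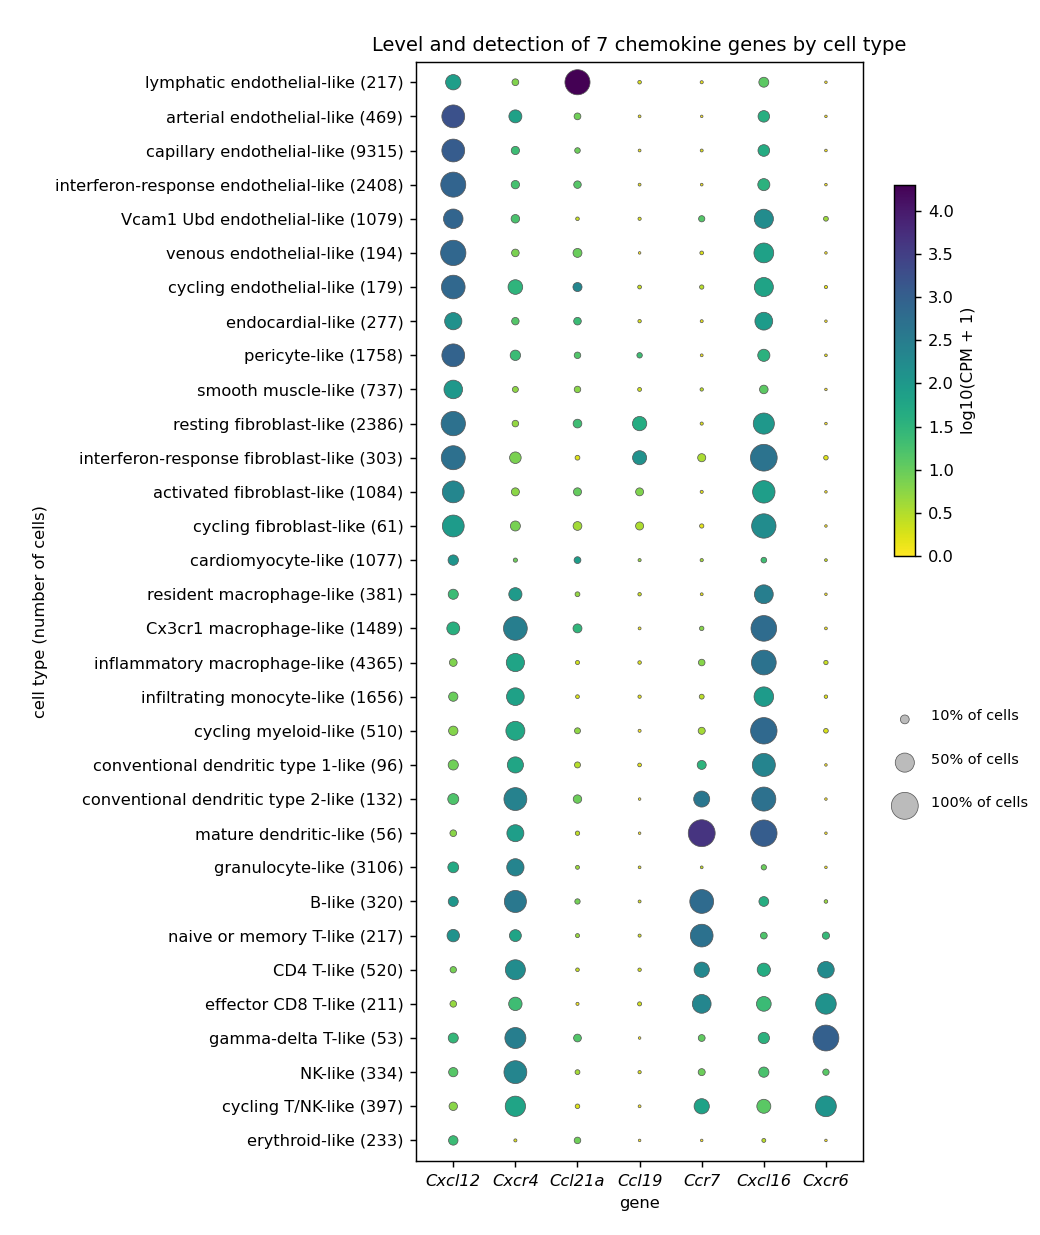
Levels of the 7 genes (columns) in the named types (rows), with color for the level as log10(CPM + 1) and point size for the percent of cells with a UMI. Ccl21a stands out in 1 type, the lymphatic endothelial-like cells at 19371 CPM, while Cxcl12, Cxcr4 and Cxcl16 are found across many types.

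**Figure D2:**
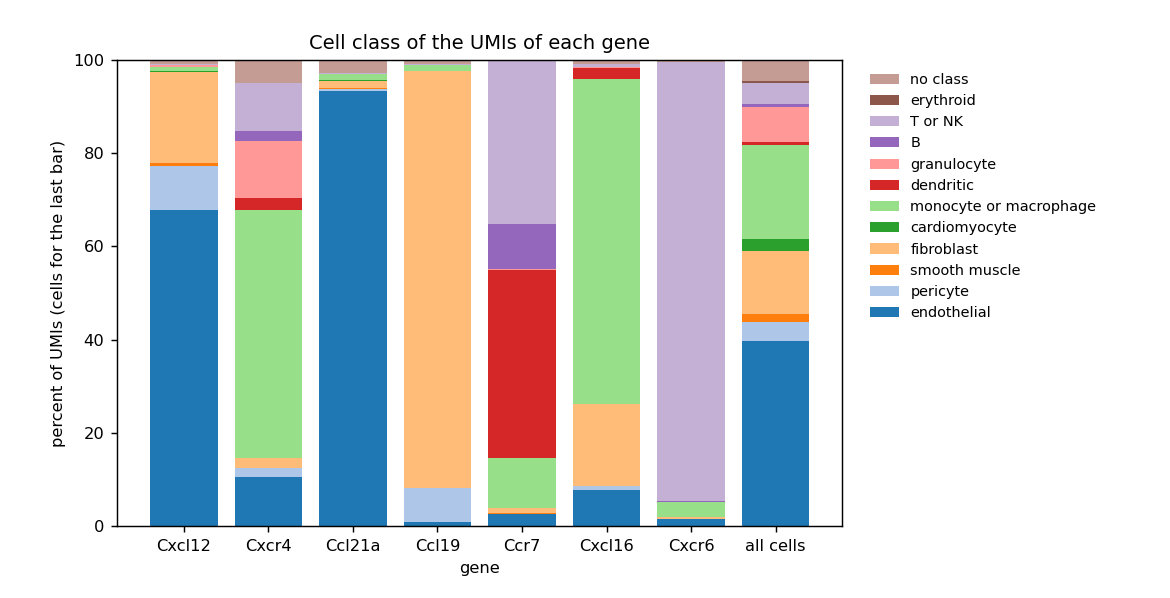
Stacked bars of the percent of each gene's UMIs that came from each main cell class, with the classes' share of all kept cells in the last bar. Endothelial-like cells supplied 67.8% of the Cxcl12 UMIs and 93.4% of those of Ccl21a, fibroblast-like cells 89.2% of those of Ccl19, and T/NK-like cells 94.2% of those of Cxcr6.

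Cxcl12 lies on chromosome 6 (chr6:117168535-117181367, plus strand, GRCm38). Its UMIs came mainly from the vessel wall, with 67.8% in endothelial-like cells, which made up 39.7% of kept cells, 19.6% in fibroblast-like cells and 9.5% in pericyte-like cells. Among named types the level was highest in arterial endothelial-like cells, at 1730.5 CPM [1689 to 1773] over 469 cells. Capillary endothelial-like cells followed at 1176 CPM [1167 to 1185] over 9315 cells and held 37.8% of all Cxcl12 UMIs. Pericyte-like cells stood at 879.6 CPM, interferon-response endothelial-like cells at 842 CPM and endothelial-like cells marked by Vcam1 and Ubd at 831 CPM, and the intervals of the last pair overlapped. The pericyte-like cells also carried the endothelial gene Cdh5, at 762 CPM with a UMI in 56.4% of cells, and the part of endothelial RNA in their Cxcl12 level was not tested. Below these came venous endothelial-like cells at 759 CPM, interferon-response fibroblast-like cells at 534 CPM and resting fibroblast-like cells at 524 CPM.

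Not all endothelium was rich in Cxcl12. Endocardial-like cells, from the lining of the heart chambers, stood at 135 CPM and lymphatic endothelial-like cells at 80.1 CPM. Activated fibroblast-like cells, marked by Postn and Cthrc1, stood at 208 CPM, below resting fibroblast-like cells in library 1 (458 against 648 CPM) and in library 3 (187 against 347 CPM). The lowest named type was the effector CD8 T-like cells at 3.79 CPM. Granulocyte-like cells, given as a measure of background, had a Cxcl12 UMI in 15.6% of cells (median depth 3727 UMIs), while capillary endothelial-like cells had one in 71.6% (3714 UMIs).

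The order of arterial over capillary endothelial-like cells differed between libraries. Arterial endothelial-like cells stood at 706 CPM in library 1 (75 cells), 1109.6 CPM in library 2 (181 cells) and 2222 CPM in library 3 (213 cells). Capillary endothelial-like cells stood at 1239.8 CPM in library 1, 961 CPM in library 2 and 1557 CPM in library 3. The arterial value was thus the higher in libraries 2 and 3 and the lower in library 1, and library 4 had under 20 cells of either type. When the cells were clustered again without library 3, the 243 cells that took the arterial name stood at 995 CPM and capillary endothelial-like cells led. Without library 1 the name covered 832 cells, more than the 181 and 213 of libraries 2 and 3 above, and their level was 2771 CPM, so this value describes a larger set of cells. Pericyte-like cells were found in all libraries, at 942 CPM in library 1, 468 CPM in library 2, 1250.0 CPM in library 3 and 741 CPM in library 4 (42 cells).

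A cluster that could not be named exceeded the pooled arterial level. It held 819 endothelial-like cells, 793 of them from library 3, was led by Adamts4 and Pde12 in 1 part and by Rgs5 in the other, and had Cdh5 at 1439 CPM. Its Cxcl12 level was 1960 CPM [1931 to 1988], with a UMI in 97.1% of cells. Arterial endothelial-like cells of library 3 alone stood above this, at 2222 CPM. The part led by Rgs5, 324 cells, reached 3141 CPM. Within the endothelial class 3 of 9 arterial markers counted for it (Stmn2, Hey1 and Efnb2), and against all types 6 of 8 capillary markers did, and it took neither name. Cxcl12 was itself among the leading genes of that part, although it had been kept out of the genes used for clustering.

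**Figure D3:**
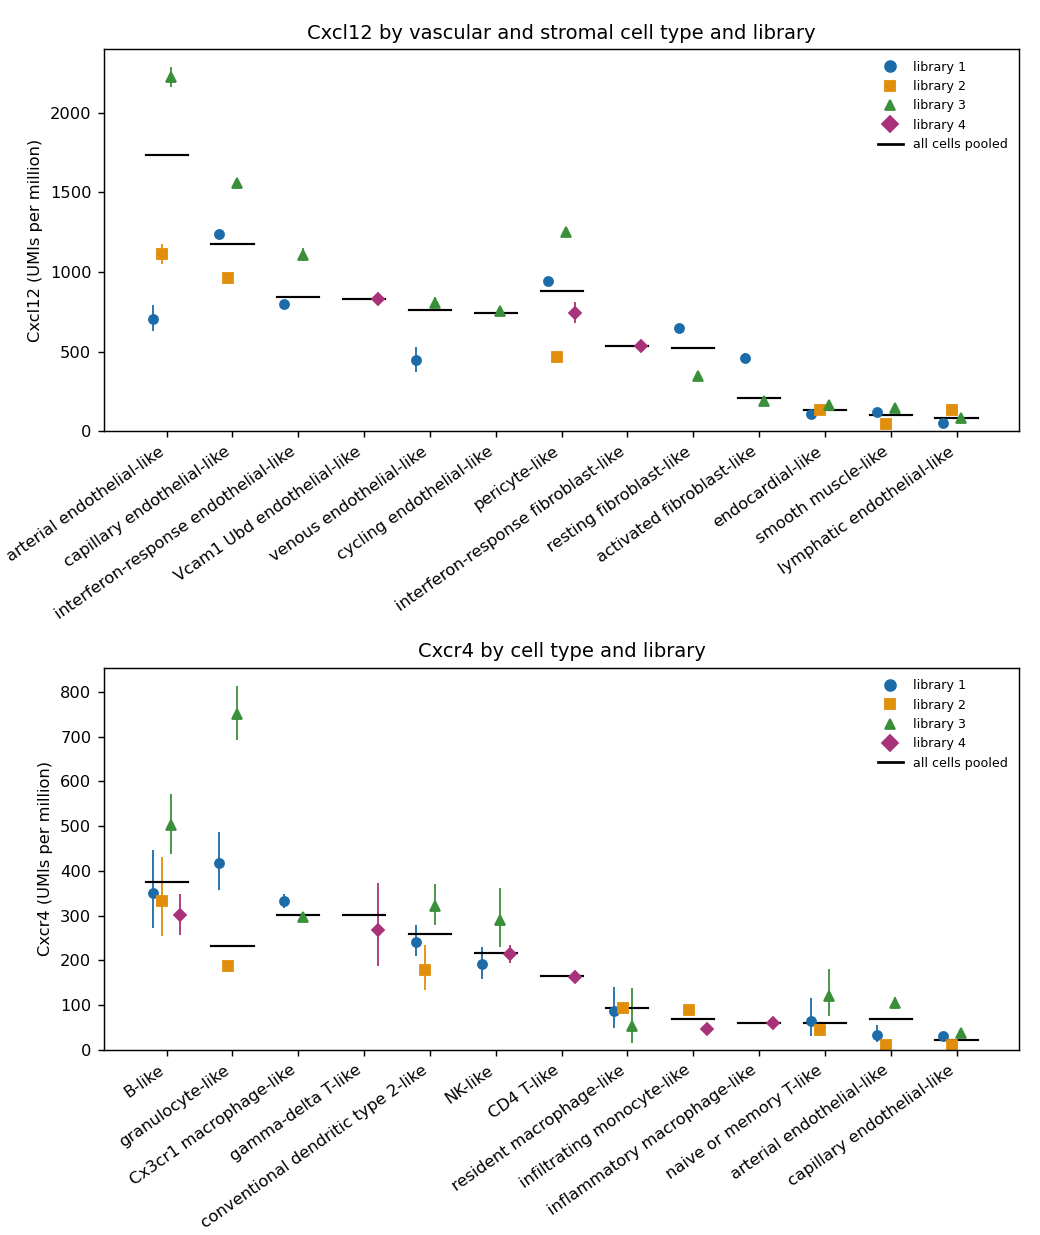
Levels of Cxcl12 and its receptor Cxcr4 in CPM by cell type, with 1 point for each library that had at least 20 cells of the type, vertical bars for exact Poisson 95% intervals and black lines for all cells pooled. The arterial endothelial-like points for Cxcl12 run from 706 to 2222 CPM, and the granulocyte-like points for Cxcr4 from 188 to 751 CPM, wider than the counting intervals.

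Cxcr4, the CXCL12 receptor, lies on chromosome 1 (chr1:128588199-128592293, minus strand). Leukocytes held most of its UMIs, with 53.2% in monocyte- and macrophage-like cells, 12.1% in granulocyte-like cells and 10.3% in T/NK-like cells, and 10.6% came from endothelial-like cells. The highest level in a type of at least 50 cells was in B-like cells, at 375 CPM [343 to 409] over 320 cells, where 66.9% of cells had a UMI. Macrophage-like cells marked by Cx3cr1 stood at 302 CPM over 1489 cells and held 25.6% of all Cxcr4 UMIs. Gamma-delta T-like cells (302 CPM, 53 cells), type 2 conventional dendritic-like cells (259 CPM), granulocyte-like cells (232 CPM) and natural killer-like cells (217 CPM) followed, and each interval overlapped that of the next. A set of 33 nonclassical monocyte-like cells, too small for the ranking, reached 682 CPM [582 to 793], and 27 of them were from library 1.

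Cxcr4 differed among T cells and among macrophages. The cells named CD4 T-like stood at 165 CPM, although this cluster was mixed, with a Cd4 UMI in 36.3% of cells and a Cd8a UMI in 35.8%. By level Cd8a was the higher in it, at 295 CPM against 130 CPM for Cd4. Values of this cluster beside those of effector CD8 T-like cells are therefore not a contrast of CD4 with CD8 cells. Effector CD8 T-like cells stood at 20.4 CPM. Inflammatory macrophage-like cells, nearly all of library 4, stood at 59.8 CPM. Among endothelial-like cells the arterial type had the highest level, 68.8 CPM with a UMI in 22.6% of cells, against 21.6 CPM in the capillary type. In library 3 the arterial level was 104 CPM (95% interval 91.6 to 119), above the 37.3 CPM of the capillary type (34.4 to 40.3). In library 1 (32.0 against 31.0 CPM) and library 2 (9.86 against 10.9 CPM) the intervals of the 2 types overlapped, with 13 and 11 Cxcr4 UMIs in the arterial cells. Library 4 held no cells named arterial endothelial-like. Resting fibroblast-like cells were at 4.04 CPM.

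By library, B-like cells stood at 351, 334, 501 and 301 CPM in libraries 1 to 4. Granulocyte-like cells stood at 418 CPM in library 1 (96 cells), 188 CPM in library 2 (2746 cells) and 751 CPM in library 3 (256 cells). With each library weighted equally the granulocyte-like mean was 452 CPM, above the 372 CPM of B-like cells, because the pooled value rests on library 2. Clustered without library 2, granulocyte-like cells led, and without library 3, Cx3cr1 macrophage-like cells led. The place of B-like cells at the top was therefore not held across libraries.

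Ccl21a lies on chromosome 4 (chr4:42772860-42773993, minus strand) in a region where the mouse genome carries several near-identical copies of the gene. In the GENCODE M21 annotation, the transcript of the copy Gm21541 differed from that of Ccl21a at 6 of 870 bases, which were G24A, T159A, C269T, C640T, T812C and G856A, counted from 1 at the 5' end of the Ccl21a transcript, with the Ccl21a base first. Ccl21b and Gm10591 differed at 2 of 402 aligned bases, T159A and C269T. The coding stretch that holds both positions, bases 150 to 279, is shown because these 2 differences were shared by all the copies compared, Gm21541, Gm13304, Ccl21b and Gm10591. Gm21541 and Gm13304 also differed at the 3 positions near the 3' end, C640T, T812C and G856A, where 3' chemistry places most reads. Capitals mark the bases that differ.
Ccl21a: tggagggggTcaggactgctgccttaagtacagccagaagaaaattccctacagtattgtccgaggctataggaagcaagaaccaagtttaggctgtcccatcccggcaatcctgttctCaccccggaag
Ccl21b: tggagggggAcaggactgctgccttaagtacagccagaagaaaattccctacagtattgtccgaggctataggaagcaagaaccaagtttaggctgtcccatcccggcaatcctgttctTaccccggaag
Of the 721 windows of 150 bases, the read length given in the methods, 243 of Ccl21a (33.7%) occurred unchanged in a transcript of another gene. For Ccl19, 329 of 596 windows (55.2%) did. Over the last 300 windows of each transcript, the end that 3' chemistry reads, the shared windows numbered 91 (30.3%) for Ccl21a and 248 (82.7%) for Ccl19. Only annotated transcripts under other symbols were compared, so the second rows of Ccl21a and Ccl19 were left out. The 402-base transcripts of Ccl21b and Gm10591 do not reach the last 300 windows of Ccl21a. These shares can therefore be too low. The Ccl21a and Ccl19 counts are thus uncertain to the extent that reads shared with a copy were dropped or assigned elsewhere. Gm21541 had 169 UMIs in kept cells, 152 of them in lymphatic endothelial-like cells, and Ccl21b, Ccl21c, Gm13304 and Gm10591 had 0. In the lymphatic endothelial-like cells Gm21541 stood at 71.8, 11.4, 76.4 and 0 CPM in libraries 1 to 4. The interval in library 4, with 12 of these cells, reached 11.6 CPM. Whether reads were split between the copies alike in each library was not tested.

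Ccl21a was almost wholly a transcript of lymphatic endothelial-like cells. These 217 cells, 0.512% of those kept, held 58753 UMIs or 90.9% of the total, at 19371 CPM [19215 to 19529]. The next type, cycling endothelial-like cells, stood 93.2-fold lower at 208 CPM, and the median over the 32 types was 6.06 CPM. The type joined 177 cells of an endothelial subcluster with 40 cells first placed among fibroblast-like clusters, which took the name on comparison with all types. It carried the lymphatic transcription factor Prox1 (572 CPM), Mmrn1 (1793 CPM) and Lyve1 (1719 CPM), and had Ptprc, the pan-leukocyte gene, at 4.62 CPM. The fibroblast gene Dcn stood at 85.4 CPM, with a UMI in 53.9% of cells. The part of the 40 cells in the spread described below was not tested. A Ccl21a UMI was found in 87.1% of these cells, and in 80.5% after each cell was thinned to 1000 UMIs. In granulocyte-like cells the share was 1.26%. Those cells came mainly from library 2, where they stood at 2.18 CPM, the lowest, against 19.9 CPM in library 3, the highest.

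Within the lymphatic endothelial-like cells the level varied widely. The 10th percentile over cells was 0 CPM, the median 20164 CPM and the 90th percentile 50163 CPM. By library, Ccl21a stood at 26634 CPM in library 1 (85 cells), 2328 CPM in library 2 (49 cells), 27102 CPM in library 3 (71 cells) and 16037 CPM in library 4 (12 cells). The median cell had 201, 2, 268 and 329 UMIs of Ccl21a in libraries 1 to 4, and 5 of the 49 cells of library 2 had at least 100, against 55 of 85 in library 1 and 55 of 71 in library 3. Library 2 was thus the low one, although its median depth of 10770 UMIs exceeded the 7608 UMIs of library 1.

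Other lymphatic genes were also lower in library 2, but not all. Prox1 stood at 179 CPM in library 2, against 773 CPM in library 1, 778 CPM in library 3 and 311 CPM in library 4. Mmrn1 stood at 1023 CPM in library 2, against 2292, 2142 and 1140.4 CPM. Lyve1 was highest in library 2, at 2197 CPM against 1338 to 1679.8 CPM elsewhere, and so was the pan-endothelial gene Cdh5, at 728 CPM against 552 to 656 CPM. Among cells with both a Prox1 and a Mmrn1 UMI, a subset chosen after these values were seen, Ccl21a stood at 2270.0 CPM in library 2 (36 cells) against 26679 CPM in library 1 (75 cells), 26918 CPM in library 3 (67 cells) and 15549 CPM in library 4 (9 cells). The origin of the difference was not tested.

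**Figure D4:**
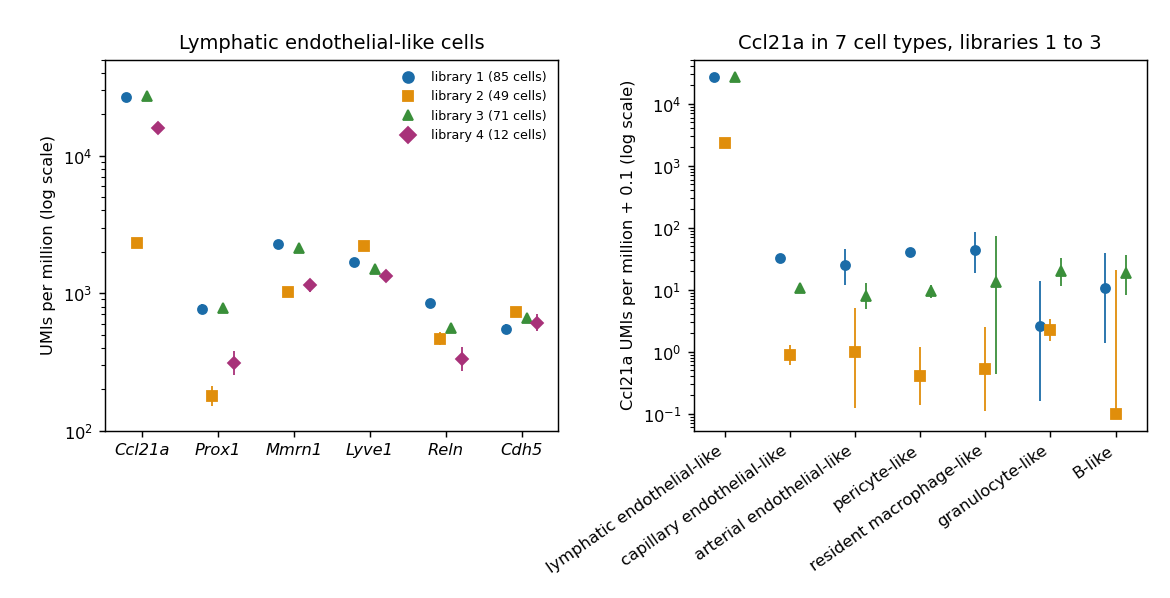
Left, Ccl21a and lymphatic and endothelial genes in the lymphatic endothelial-like cells by library. Right, Ccl21a in 7 types in libraries 1 to 3. Both vertical axes are in CPM on a log scale, with 0.1 CPM added on the right, and bars are exact Poisson 95% intervals. Library 2 stands at 2328 CPM of Ccl21a, against 16037 to 27102 CPM in the other libraries, with Prox1 lower and Lyve1 higher than in the others. Of the 3 libraries on the right, library 2 is the lowest in capillary endothelial- and pericyte-like cells.

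Outside the lymphatic endothelial-like cells, few cells carried most of the remaining Ccl21a. A total of 135 kept cells had at least 100 UMIs, and 11 of these lay in other clusters, among them 2 cycling endothelial-like, 2 Cx3cr1 macrophage-like and 1 cardiomyocyte-like cell. All 11 also had UMIs of Mmrn1 and Prox1. They held 56.7% of the Ccl21a UMIs found outside the lymphatic type, and without them cycling endothelial-like cells fell from 208 to 21.1 CPM and cardiomyocyte-like cells from 85.1 to 28.2 CPM. Capillary endothelial-like cells stood at 8.34 CPM, and at 32.2, 0.793 and 10.6 CPM in libraries 1 to 3. Pericyte-like cells stood at 40.2, 0.303 and 9.33 CPM in the same libraries, and the 42 pericyte-like cells of library 4 had no UMI, with an interval that reached 5.28 CPM. Cardiomyocyte-like cells had their highest level in library 2, at 599.6 CPM against 32.9 and 22.4 CPM in libraries 1 and 3, but there all 135 UMIs came from 2 cells. Of these UMIs, 134 came from 1 of the 11 cells above, so the high level of library 2 in this type rests on 1 cell.

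Ccl19, the other CCR7 ligand, also lies on chromosome 4 (chr4:42754525-42756577, minus strand) but was found in different cells. Fibroblast-like cells held 89.2% of its UMIs and pericyte-like cells 7.1%. The level was 139 CPM [132 to 147] in interferon-response fibroblast-like cells (303 cells, 301 of library 4), 43.6 CPM in resting fibroblast-like cells and 20.3 CPM in pericyte-like cells. Lymphatic endothelial-like cells stood at 0.659 CPM. In mature dendritic-like cells no UMI was found, which with 0 of 56 cells allows a share of up to 5.36% of cells with a UMI.

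Few cells of each type carried Ccl19. A UMI was found in 81 of the 303 interferon-response fibroblast-like cells (26.7%), the median cell had none, and the 90th percentile was 377 CPM. Resting fibroblast-like cells had a UMI in 27.7% of cells, and stood at 57.9 CPM in library 1 and 22.6 CPM in library 3. Pericyte-like cells had a UMI in 3.24% of cells, and stood at 20.6, 17.7, 13.9 and 104 CPM in libraries 1 to 4, where the last value came from 4 of 42 cells. Clustered without library 4, which held 301 of the 303 cells, a different set of 990 cells took the interferon-response fibroblast-like name and stood at 60.8 CPM. Without library 2 or library 3 no cluster took that name and resting fibroblast-like cells led. With 20 principal components 77 cells took the name, at 28.8 CPM, and pericyte-like cells led.

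The highest Ccl19 level lay in an unnamed cluster of 210 cells led by Ptgds, Cytl1 and Wif1, with the fibroblast gene Dcn at 21843 CPM. Ccl19 stood there at 245 CPM [227 to 265], with a UMI in 71.0% of cells. By library the values were 201 CPM in library 1, 636 CPM in library 2 and 143 CPM in library 3. A part of 71 cells had Gm2564 among its leading genes, a gene whose transcript shares windows of 150 bases with Ccl19. Its part in the Ccl19 level was not tested.

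Ccr7, the receptor of CCL19 and CCL21, lies on chromosome 11 (chr11:99144196-99155077, minus strand). Dendritic-like cells, 0.722% of those kept, held 40.3% of its UMIs, T/NK-like cells 34.8% and B-like cells 9.8%. The level was highest in mature dendritic-like cells, at 4584 CPM [4418 to 4754], 7.07-fold above the next type. This group had 56 cells, 50 of them from library 4, and all 56 had a Ccr7 UMI. The group had first been placed among endothelial-like clusters and took its name on comparison with all types, with Fscn1 at 2507 CPM, Cacnb3 at 839 CPM and Ccl22 at 289 CPM, and with endothelial Cdh5 at 7.95 CPM. At resolutions 0.4 and 1.6, with a minimum of 500 genes or without library 1, no cluster took the name, and Ccr7 was then highest in B-like or in naive or memory T-like cells. Without library 4 the type held 16 cells at 3667 CPM, too few to rank, and B-like cells led.

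Among lymphocytes, Ccr7 stood at 648 CPM [606 to 692] in B-like cells, with a UMI in 78.1% of cells. The 4 libraries gave 798, 667, 693 and 559 CPM. Naive or memory T-like cells, marked by Lef1 and Tcf7, stood at 499.6 CPM with a UMI in 71.0% of cells, and at 424, 499 and 591 CPM in libraries 1 to 3. This cluster also carried RNA of other cells, with Fabp4 at 3762 CPM and S100a8 at 748 CPM, whose part in its levels was not tested. Effector CD8 T-like cells stood at 209 CPM and CD4 T-like cells at 207 CPM, and their intervals overlapped. Both were mainly of library 4, so against the naive or memory type, type and library cannot be told apart. Natural killer-like cells were at 8.11 CPM and gamma-delta T-like cells at 10.4 CPM. The share with a UMI was 0.322% in capillary endothelial-like cells and 0.193% in granulocyte-like cells, given as a measure of background. Both of these types were mainly of libraries 1 to 3. Among types mainly of library 4, endothelial-like cells marked by Vcam1 and Ubd stood at 13.4 CPM and inflammatory macrophage-like cells at 5.15 CPM. Natural killer-like cells had 0 CPM in library 1 and 10.9 CPM in library 4. The natural killer- and gamma-delta T-like values are thus not read as above background.

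Conventional dendritic-like cells were divided. Type 2 cells stood at 409 CPM but only 34.8% of them had a UMI, and the libraries gave 350, 138 and 534 CPM. The leading genes of this cluster included Ccl22 and Il4i1 of the mature dendritic list beside its own Cd209a and Clec10a, and how many mature cells it held was not tested. Type 1 cells stood at 31.6 CPM, with no UMI in the 23 cells of library 1 and 59.3 CPM in the 53 cells of library 4. An unnamed cluster of 151 myeloid-like cells led by Ifitm1 and Ffar2 stood at 218 CPM, and the 84 cells in it that carried Ccl22, Cacnb3, Il4i1 and Socs2 stood at 348 CPM.

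**Figure D5:**
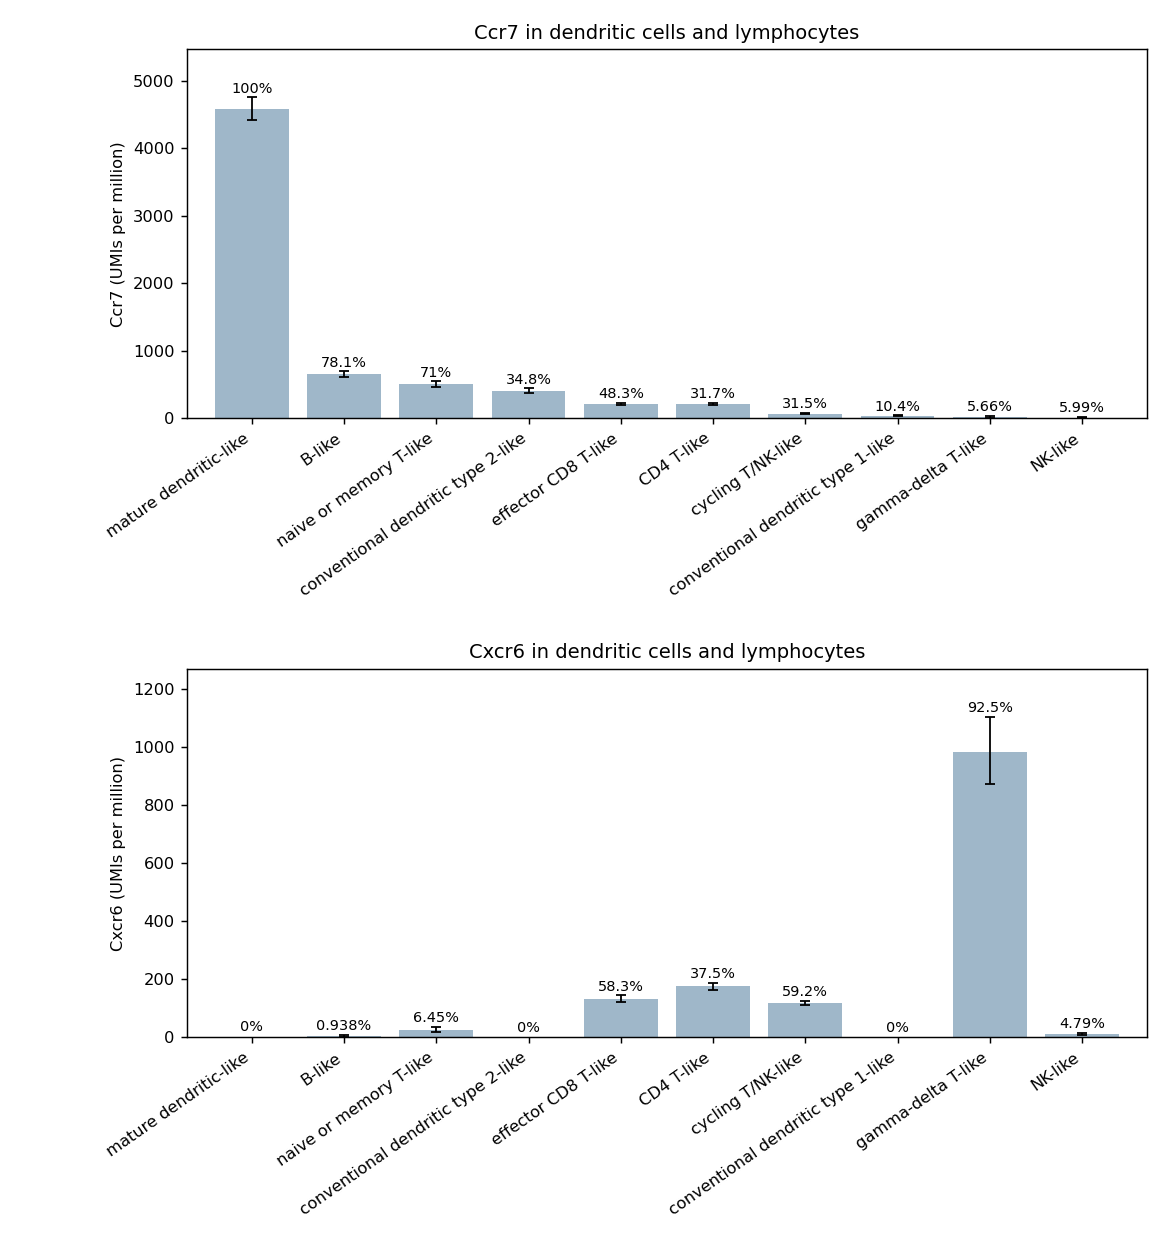
Levels in CPM of Ccr7 and Cxcr6 in dendritic-, B-, T- and natural killer-like types, with bars for the level, whiskers for exact Poisson 95% intervals and the percent of cells with a UMI above each bar. Ccr7 peaks in mature dendritic-like cells at 4584 CPM and Cxcr6 in gamma-delta T-like cells at 983 CPM, each low where the other peaks.

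Cxcl16 lies on chromosome 11 (chr11:70453983-70459984, minus strand). Monocyte- and macrophage-like cells held 69.6% of its UMIs, fibroblast-like cells 17.5% and endothelial-like cells 7.7%. Per cell type the level was highest in mature dendritic-like cells, at 1103 CPM [1023 to 1188] with a UMI in 96.4% of cells. Cycling myeloid-like cells stood at 698 CPM, Cx3cr1 macrophage-like cells at 628 CPM, type 2 conventional dendritic-like cells at 515 CPM and inflammatory macrophage-like cells at 482 CPM. This pooled order did not hold within library 3. There cycling myeloid-, Cx3cr1 macrophage- and type 2 conventional dendritic-like cells stood at 497, 682 and 723 CPM. The cycling myeloid-like cells of library 4 stood at 729 CPM. The inflammatory macrophage-like cells, 4365 cells of which 4362 were of library 4, held 37.3% of all Cxcl16 UMIs. Resident macrophage-like cells stood at 298 CPM, with 304, 300.3 and 227 CPM in libraries 1 to 3.

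Outside the myeloid cells, Cxcl16 stood at 467 CPM in interferon-response fibroblast-like cells, where 98.7% of cells had a UMI, and at 99.0 CPM in resting fibroblast-like cells. Libraries 1 and 3 of the resting type gave 97.1 and 102 CPM. Endothelial-like cells marked by Vcam1 and Ubd stood at 169.5 CPM and capillary endothelial-like cells at 45.5 CPM. The former also carried the macrophage gene C1qa, at 156 CPM with a UMI in 59.1% of cells. A part of 387 of these 1079 cells was led within the endothelial class by Ccl8, Plac8, Aif1 and C1qb, and stood at 458 CPM of Cxcl16 with 185 of the 1506 UMIs of the type. The part of macrophage RNA in the level was not tested. The higher type in each of these pairs was found mainly in library 4, so the type and the library cannot be told apart. Pericyte-like cells, present in all libraries, stood at 19.2, 25.5, 36.4 and 226 CPM in libraries 1 to 4. Granulocyte-like cells were at 8.50 CPM. Where no cluster took the mature dendritic name, Cxcl16 was highest in Cx3cr1 macrophage-like or cycling myeloid-like cells.

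Cxcr6, the CXCL16 receptor, lies on chromosome 9 (chr9:123806475-123811760, plus strand). T/NK-like cells held 94.2% of its UMIs, and 12 of the 32 types had none. Gamma-delta T-like cells, marked by Trdc (2362 CPM) and Cd163l1 (764 CPM), had the highest level, at 983 CPM [872 to 1104]. Of these 53 cells, 49 had a UMI (92.5%, and 67.9% after thinning to 1000 UMIs), and the 29 cells of library 4 stood at 863 CPM. CD4 T-like cells stood at 176 CPM, effector CD8 T-like cells at 134 CPM and cycling T/NK-like cells at 119 CPM, and the intervals of the last pair overlapped. The cycling cells held 40.3% of all Cxcr6 UMIs. After thinning, these 3 types had a UMI in 13.5%, 13.3% and 12.9% of cells. Clustered without library 4, no cluster took the gamma-delta name and effector CD8 T-like cells led. The effector CD8 T-like cells described above were of library 4, so without it a different set of cells took that name.

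Pooled naive or memory T-like and natural killer-like cells were lower in Cxcr6. Naive or memory T-like cells stood at 25.8 CPM and natural killer-like cells at 12.2 CPM with a UMI in 4.79% of cells, against 0.0859% in capillary endothelial-like cells. The naive or memory type ran from 6.81 CPM in library 2 to 92.1 CPM in library 3. It was read in libraries 1 to 3, while CD4 T-, effector CD8 T- and cycling T/NK-like cells were mainly of library 4. For these types, type and library cannot be told apart. An unnamed T/NK-like cluster of 102 cells led by hemoglobin genes and Cd40lg was not low, at 282 CPM. This was above every named type of at least 50 cells except the gamma-delta T-like cells. Against all types 6 of 6 effector CD8 markers counted for it. Its UMIs of Ltb, a gene described below, numbered 233 in library 1, 127 in library 3 and 6 in library 4. Of the 520 CD4 T-like cells, 165 had a Ccr7 UMI and 195 a Cxcr6 UMI, and 33 had both, or 6.35%, where the product of the shares is 11.9%. As given above for Cd4 and Cd8a, these cells were mixed, and the part of the mixture in that difference was not tested. In effector CD8 T-like cells 26.1% had both and the product was 28.2%, and in cycling T/NK-like cells 16.9% and 18.6%. These are descriptions of cells of few libraries and were not tested.

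Differences between libraries were counted for these genes. In the 22 types with at least 20 cells in more than 1 library, a gene was counted where its highest library was at least 2-fold its lowest, with 10 CPM added and a mean of at least 10 CPM. This held for 39 of 75 pairs of a member and a type, against 17.3% of the 165150 pairs of all genes, and a test was not made because the libraries have no labels. The mean weighted each library equally, so a pair could enter through 1 library where it was high. Ccl21a in arterial endothelial-like cells (24.6 CPM in library 1, 0.896 CPM in library 2) entered in this way. So did Ccr7 in type 1 conventional dendritic-like cells (59.3 CPM in library 4, 0 CPM in library 1). All genes went through the same filter but were not matched for level. The difference from 17.3% is thus not read as a trait of these genes. The count was 12 of 20 types for Cxcl12, 8 of 12 for Ccl21a, 7 of 16 for Cxcr4, 6 of 18 for Cxcl16, 3 of 3 for Ccl19, 2 of 4 for Ccr7 and 1 of 2 for Cxcr6. The Cxcl12 count includes leukocyte types, among them B-, natural killer-, naive or memory T- and granulocyte-like cells. Granulocyte-like cells were given above as a measure of background for Cxcl12. The part of RNA from other cells in these types was not tested. The Ccl21a count includes the cells of other clusters with at least 100 UMIs described above. In cardiomyocyte-like cells, a type that was counted, 1 such cell of library 2 held 67% of the Ccl21a UMIs. A count without these cells was not made. The share of all genes that passed ran from 0.841% to 53.3% across the types, so the members are read beside it. In arterial endothelial-like cells 4 of 4 members passed (15.8% of all genes), in capillary endothelial-like cells 2 of 4 (10.7%), in lymphatic endothelial-like cells 2 of 2 (22.4%) and in pericyte-like cells 4 of 5 (24.6%). Ccl21a was among those that passed in the arterial and capillary types, at only 7.67 and 8.34 CPM pooled. Resting fibroblast-like cells, with 2 libraries, had 2 of 4 (1.47%). These 2 were Ccl19 and Ccl21a, and 1 cell of library 3 held 417 Ccl21a UMIs, 59.6% of those of the type. In B-like cells 2 of 4 passed (36.1%) and in granulocyte-like cells 2 of 3 (36.6%), where the background itself was high. The B-like pair was Cxcl12 (234 CPM in library 1, 3.47 CPM in library 4) and Cxcl16 (55.6 CPM in library 4, 5.32 CPM in library 1). Cxcr4 and Ccr7 did not pass in B-like cells. In Cx3cr1 macrophage-like and interferon-response endothelial-like cells 0 of 4 did (1.01% and 0.841%).

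The genes whose pattern was most like each member were found over 54 combinations of type and library, from 30 types, as Pearson's r of log2(CPM + 10) among 11970 genes. The points share libraries, and several types share 1 lineage, so the values are descriptions. Cxcl12 was most like Uaca (0.929), Hspg2 (0.927) and Mcc (0.923), and Cxcr4 most like Prkcb (0.891), Inpp5d (0.877) and Nfkbid (0.875). Ccl21a was most like Mmrn1 (0.963), which helped to name the lymphatic cells, Reln (0.921), another of those markers, and Hoxd8 (0.887). Ccl19 was most like Steap2 (0.889), Has1 (0.882) and Pla1a (0.877). Ccr7 was most like Dpp4 (0.883), Zc3h12d (0.882) and Irf4 (0.855), Cxcl16 most like Zmynd15 (0.838), Tmem106a (0.825) and Npc2 (0.805), and Cxcr6 most like Izumo1r (0.947), a marker of the CD4 T list, Pdcd1 (0.942) and Themis (0.938).

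Other genes of the same systems were read from a list of 31, of which 29 were in the matrix and 23 had at least 100 UMIs. Ackr3, an atypical receptor that removes CXCL12, was highest in endocardial-like cells at 357 CPM, where Cxcl12 was 135 CPM, and stood at 168 CPM in capillary endothelial-like cells. Ackr4, which removes CCL19 and CCL21, was highest in activated fibroblast-like cells at 41.8 CPM and stood at 28.3 CPM in resting fibroblast-like cells. Dpp4, a protease that trims CXCL12, was highest in mature dendritic-like cells at 154 CPM. The sheddase gene Adam10 was highest in lymphatic endothelial-like cells at 248 CPM, and Adam17 in cycling myeloid-like cells at 108 CPM.

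The 5 signals of lymphoid tissue in the list did not share 1 leading type. Il7, a survival cytokine of lymphocytes, stood at 84.4 CPM in lymphatic endothelial-like cells, which held 44.8% of its UMIs, and by library at 131, 24.2, 101 and 47.1 CPM, lowest in library 2 as was Ccl21a. Ltb, which encodes lymphotoxin beta, was highest in gamma-delta T-like cells at 1233 CPM and stood at 568 CPM in CD4 T-like cells. Lta, for lymphotoxin alpha, and Tnfsf11, for RANK ligand, were also highest in gamma-delta T-like cells, at 45.1 CPM from 13 UMIs and 101 CPM from 29 UMIs, and Tnfsf11 came next in interferon-response fibroblast-like cells at 20.1 CPM. The Lta interval there, 24.0 to 77.2 CPM in gamma-delta T-like cells, overlapped that of cycling T/NK-like cells at 37.8 CPM, which held 60.0% of the Lta UMIs. Ltbr, the lymphotoxin beta receptor, was highest in endocardial-like cells at 76.5 CPM, and its interval overlapped that of venous endothelial-like cells at 75.1 CPM. Among other chemokine genes of the list, Cxcr5, the receptor of CXCL13, was highest in B-like cells at 202 CPM, as was Ccr6 at 72.1 CPM. Cxcl14 was highest in interferon-response fibroblast-like cells at 1239 CPM and stood at 335 CPM in resting fibroblast-like cells. Ccl28, with 48 UMIs, and Ccl20, with 1 UMI, were close to absent at this depth.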

How the data were processed

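According to the methods, the authors aligned reads of a 150 bp paired-end run to mm10 with Ensembl 92 genes using Cell Ranger 3.0.0, and the file headers name the same version. The deposited values are raw UMI counts per gene and cell, not normalized, in 1 merged matrix of 53824 cells and 30905 genes. Library totals over all deposited cells were 96020294, 115162601, 138892048 and 166079145 UMIs.

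From these counts, cells with more than 200 genes and less than 20% mitochondrial UMIs were kept, as in the methods, and the 5% of cells per library with the highest simulated doublet score were removed. After scaling of each cell to 10000 and a log transform, the 2000 most variable genes, without the members and the pathway list, gave 10 principal components, 30 nearest neighbors and Leiden clusters at resolution 0.8, split again within each class. A marker counted where at least 10% of cells had a UMI and its CPM was 2-fold that of the other clusters, with 10 CPM added, and a name needed 3 markers. Subclusters of at least 30 cells left without a name were tried once more against all subtype lists, with the clusters of all cells as background. Coordinates are GRCm38, GENCODE M21. Clustering ran with leidenalg 0.10.2, igraph 0.11.9 and scikit-learn 1.9.0, intervals with scipy 1.17.1, tables with pandas 2.3.3 and numpy 2.4.6 and plots with matplotlib 3.10.9 (Python 3.11.15), and the steps were tested on simulated data.

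Samples were pooled because no label pairs a barcode suffix with a graft, so no groups were compared and no p-values were computed. Members and lists were chosen with earlier results of these data known. Named genes were the 7 members, pathway genes with at least 100 UMIs, the 3 genes most like each member, cell type markers and leading genes of unnamed clusters. Ccl28, Ccl20 and the Ccl21 copies, below that minimum or at 0, are named to account for the list. A floor of 3 counts was used where a value was 0. Alternatives changed the resolution, principal components, doublets, gene minimum, depth minimum, weighting and libraries.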

Additional observations from a re-analysis of the deposited data

Results flagged for a closer look

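The 9198 cells that failed the filter on genes and mitochondrial UMIs, at a median depth of 1071 UMIs, were used in no value above, and each of the 7 genes was found in them above the 0.191 CPM that a count of 0 would allow. The level was 457 CPM for Cxcl12, 97.0 CPM for Cxcr4, 167 CPM for Ccl21a, 4.91 CPM for Ccl19, 35.1 CPM for Ccr7, 141 CPM for Cxcl16 and 16.0 CPM for Cxcr6. Over kept cells the same genes stood at 412, 57.2, 152, 12.7, 21.3, 192 and 8.09 CPM. The failed cells numbered 2790, 753, 3650 and 2005 in libraries 1 to 4, and nearly all of them failed on mitochondrial UMIs. Kept cells numbered 9806, 12496, 9358 and 10735 in the same libraries. The sets thus differ in their mix of libraries, and their levels are not a like comparison. Their cell types were not assigned.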

How the results depend on the processing

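Of 74 alternative values for the level of a gene in its leading type, 38 stayed within the counting interval of the pooled value and 36 moved, 6 of them by over 1.5 times. For 11 more pairs of a gene and a setting the type was not named, where the mature dendritic-like type counts for both Ccr7 and Cxcl16. Settings that cluster again can give a name to other cells, and the arterial name covered 243 to 1262 cells across them. For Cxcl12 in arterial endothelial-like cells the value was 1658 CPM as a mean over cells, 1346 CPM with libraries weighted equally, 1797 CPM at resolution 0.4, 2696 CPM at resolution 1.6, 1915 CPM with 20 principal components, 2073 CPM with doublets kept and 2223 CPM with at least 500 genes, and leaving out each library gave 995 to 2771 CPM. For Cxcr4 in B-like cells the mean over cells was 411 CPM and leaving out each library gave 321 to 435 CPM. In the 5 alternatives of clustering or filter, nonclassical monocyte-like cells reached 50 cells and led for Cxcr4. For Ccl21a in lymphatic endothelial-like cells the value was 21765 CPM as a mean over cells, 18688 CPM with libraries weighted equally, 19552 CPM in cells with both Prox1 and Mmrn1 (chosen after seeing the data), 19585 CPM at resolution 0.4, 19143 CPM at resolution 1.6, 18985 CPM with doublets kept and 24163 CPM with at least 500 genes, and leaving out each library gave 15229 to 25401 CPM. For Ccl19 in interferon-response fibroblast-like cells it was 178 CPM as a mean over cells, 28.8 CPM with 20 principal components and 60.3 CPM with at least 500 genes, and 60.8 to 136 CPM without library 4 or library 1. For Ccr7 in mature dendritic-like cells it was 4171 CPM with 20 principal components and 4287 CPM with doublets kept, and 3667 to 4353 CPM with a library left out. For Cxcl16 there the range was 1013 to 1211 CPM. For Cxcr6 in gamma-delta T-like cells the equal-weight value, 863 CPM, was that of library 4 alone, the only library with at least 20 of these cells. The equal-weight values of Ccl19, Ccr7 and Cxcl16 in their leading types likewise rest on 1 library. For Cxcr6 with a library left out the range was 909.8 to 1073 CPM. With 20 principal components or without library 1, 2 or 3 the gamma-delta T-like cells were under 50 and CD4 T-like cells led. The cause of these shifts was not tested.

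No paired analysis was possible because no label pairs a barcode suffix with a graft. With 1 pooled sample, the intervals cover counting error only, and types of 53 to 56 cells limit the values for Ccr7, Cxcl16 and Cxcr6.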

Other observations

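Cxcl13, the chemokine that draws B cells into follicles, was nearly confined to few cells of library 2. Resident macrophage-like cells held 1205 UMIs or 81.4% of the total, at 469 CPM, but these came from 12 of 381 cells, all of library 2, and the highest cell had 735 UMIs. Most UMIs of all genes in this type came from library 2, so here the type and the library cannot be told apart.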
